A study of Mus musculus with 6 samples.

Results

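The genes described here encode 9 enzymes of the sterol-committed branch of cholesterol synthesis, from squalene synthase to the reductases that finish the sterol nucleus. They were chosen by name from the pathway, by a rule that uses no measured value although earlier results of these data were known, and all 9 were found among the 38124 genes of the deposited table. The cells were wild-type macrophages grown in culture from the bone marrow of C57BL mice, and their poly(A) RNA was sequenced. One group of 3 libraries came from untreated macrophages, and the other group of 3 from macrophages exposed for 24 hr to thymocytes that dexamethasone (a glucocorticoid drug) had made apoptotic. The labels give the ratio as 1:40 and say that the dying cells were taken away before the RNA was extracted. The series' design text calls the samples biological replicates. The treated group differs from the untreated group in the dying cells and in whatever dexamethasone they carried, and these cannot be told apart here.

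Cholesterol is built from acetyl-CoA. The mevalonate steps end in farnesyl diphosphate, which can also be used for prenylation, dolichol and ubiquinone, whereas squalene synthase directs it to sterols. In mammalian cells most of these enzymes are controlled together by SREBP-2 (gene Srebf2), a membrane-bound transcription factor that is released when sterol in the endoplasmic reticulum is low and held back by Insig proteins when it is high. Macrophages that take up dying cells also take in the cholesterol of their membranes.

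Stretches just before a RefSeq transcript start of 4 of these genes are shown because the members moved together in most cases and 1 did not: Cyp51, Hsd17b7 and Tm7sf2 were lower with apoptotic thymocytes, and Ebp was higher. Each is the 250 bases before that start, 5′ to 3′ on the gene's own strand, from RefSeq on GRCm38.p6. RefSeq starts can lie inside the gene spans of the Ensembl and GENCODE annotation given further on: the Tm7sf2 stretch lies wholly inside its span, those of Cyp51 and Hsd17b7 overlap the edge of theirs, and that of Ebp ends just outside. Capitals mark CCAAT, the core of the box bound by NF-Y, or its reverse complement ATTGG.
Cyp51, chr5:4104698-4104947, minus strand: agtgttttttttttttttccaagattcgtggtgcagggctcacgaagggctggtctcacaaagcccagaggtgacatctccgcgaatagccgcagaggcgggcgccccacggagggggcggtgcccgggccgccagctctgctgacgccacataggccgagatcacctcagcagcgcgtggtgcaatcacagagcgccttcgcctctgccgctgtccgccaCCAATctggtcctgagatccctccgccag
Hsd17b7, chr1:169969206-169969455, minus strand: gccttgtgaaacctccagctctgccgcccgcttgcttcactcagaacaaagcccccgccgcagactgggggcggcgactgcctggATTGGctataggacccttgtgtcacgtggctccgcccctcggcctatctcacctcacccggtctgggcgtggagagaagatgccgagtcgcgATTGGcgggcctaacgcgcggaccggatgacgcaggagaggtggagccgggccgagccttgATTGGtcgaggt
Tm7sf2, chr19:6067851-6068100, minus strand: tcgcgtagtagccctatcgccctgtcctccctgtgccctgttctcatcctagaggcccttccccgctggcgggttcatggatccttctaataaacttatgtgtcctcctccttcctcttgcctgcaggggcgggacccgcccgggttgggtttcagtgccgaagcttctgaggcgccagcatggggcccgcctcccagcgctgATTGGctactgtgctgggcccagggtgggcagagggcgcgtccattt
Ebp, chrX:8193513-8193762, minus strand: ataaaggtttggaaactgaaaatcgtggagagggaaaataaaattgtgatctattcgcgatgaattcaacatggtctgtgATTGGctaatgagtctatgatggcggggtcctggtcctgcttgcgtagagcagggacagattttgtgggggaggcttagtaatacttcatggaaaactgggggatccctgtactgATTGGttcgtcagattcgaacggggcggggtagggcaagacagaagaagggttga
Counting the base before the RefSeq start as -1, the box began at -29 in Cyp51, at -165, -73 and -12 in Hsd17b7, at -47 in Tm7sf2 and at -170 and -55 in Ebp. RefSeq promoters, taken from 250 bases before to 50 bases after a start, were on hand for 7 of the 9 genes, not for Fdft1 and Sqle. There were 9 starts in all because Dhcr7 has 3, and the windows of Dhcr7 starts 1 and 2 overlap in part. CCAAT on either strand was present in 7 of these 9 windows and in 37.4% of 32544 distinct mouse promoters of the same length. The windows without it were those of Dhcr7 starts 1 and 2, while that of start 3 held it. A link between the box and the changes was not tested. GGGCGG, the GC box, was present in 8 of 9 windows and in 35.9% of all promoters. The sterol regulatory element searched as TCACNCCAC was in 0 of 9 windows and in 1.24% of all promoters. Only exact matches to this pattern were counted, and other forms of the element were not searched, so the windows may hold such forms. The 3 motifs were searched on both strands, none of the matches in these windows overlapped another, and a match or its absence describes only these windows. The GC content of the 9 windows ran from 45.3% in Ebp to 71.0% in Lss, while all promoters had a median of 53.0% with quartiles of 46.0% and 61.7%.

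Libraries held 19315132 to 25933208 mapped reads, a depth recovered from the deposited RPKM values (read counts scaled to gene length and sequencing depth). Log2 values correlated at Pearson r of 0.994 to 0.998 across genes within a group and at 0.935 to 0.940 between groups, and no library stood apart from its group. Among 7 macrophage markers all were expressed, with a summed level of 15400 to 16100 RPKM in untreated and 20100 to 22400 RPKM in treated libraries. Most of that sum is Lyz2, the lysozyme gene, with means of 13390 and 19420 RPKM. Of these 7, 5 were lower and 2 higher in the test described below, for example Fcgr1 at 52.7 and 7.43 RPKM and Mertk at 21.9 and 95.0 RPKM (means of untreated and treated libraries). Of 12 thymocyte markers, Cd3e, Cd8b1, Rag2, Ptcra and Themis were at 0 in all libraries. Without Cd4, which stood at 4.14 to 4.46 RPKM in untreated and 2.01 to 2.32 RPKM in treated libraries, the summed thymocyte level was 0.174 to 0.181 and 0.0907 to 0.215 RPKM. Summed neutrophil markers went from 6.21 to 6.87 up to 35.8 to 39.2 RPKM, nearly all S100a8 and S100a9, with Ly6g at 0 throughout. The 4 globin genes went from at most 0.0515 to between 0.923 and 1.48 RPKM. The summed level was 0.0554 to 0.0836 against 0.0165 to 0.0409 RPKM for 3 dendritic cell markers, 1.25 to 1.39 against 0.905 to 1.12 for 3 fibroblast markers, and at most 0.0904 for 3 B cell markers. The part of these in the results below was not tested.

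With apoptotic thymocytes, 8 of the 9 enzyme genes fell and 1, Ebp, rose (limma on log2(RPKM + 1), adjusted p under 0.05 over 10173 tested genes). In the same test 46.0% of all tested genes were lower and 18.8% higher. Treated libraries all lay below the untreated ones for 8 members and for 49.1% of tested genes. The median log2 change of the members was -0.94, against -0.13 for all tested genes. A log2 change below -1 was reached by 4 of the 9 members (Fdft1, Sqle, Cyp51 and Hsd17b7) and by 5.65% of tested genes. That count depends on the offset of 1 RPKM: with an offset of 0.1 Tm7sf2 reached -1.26 as well, and in ratios of mean RPKM Tm7sf2 fell 2.49-fold and Nsdhl 2.005-fold. With median-of-ratios scaling, which moves the median of all genes to 0.02, 27.9% of tested genes were lower, and lower genes made up 46.7% of all calls instead of 71.0%. The members stayed at 8 lower and 1 higher. In RNA of whole cultures, fewer cells of a type and less RNA per cell cannot be told apart.

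**Figure D1:**
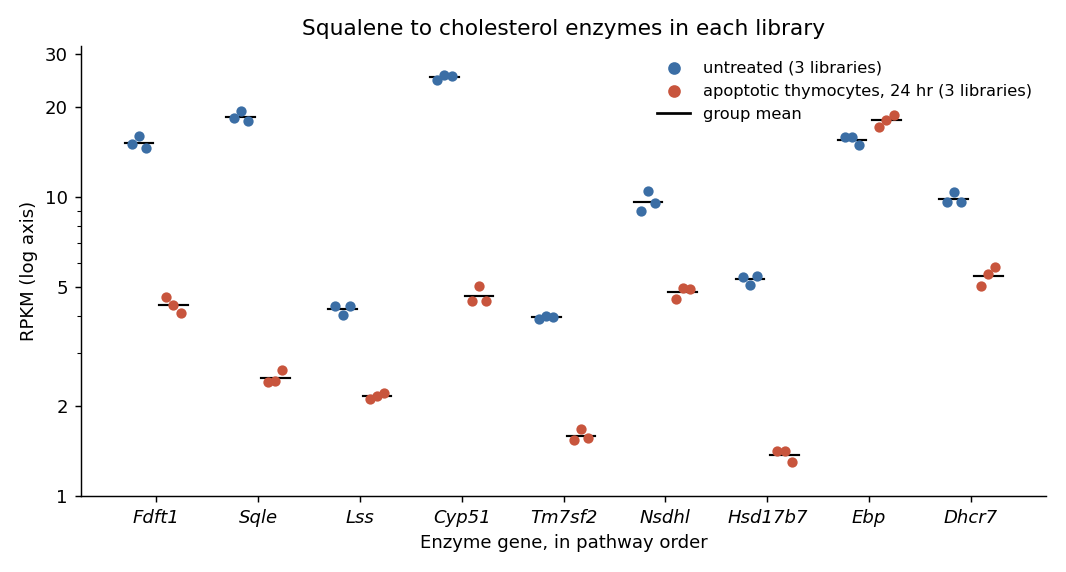
RPKM on a log axis of the 9 enzyme genes in pathway order, with 1 point per library (blue untreated, red treated) and a black bar at each group mean. Treated points lie below all untreated points for 8 genes and above them for Ebp, whose means are 15.5 and 18.0 RPKM.

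The 3 enzymes that make the sterol ring came down by different amounts. Fdft1 (ENSMUSG00000021273, chromosome 14, 63145153 to 63177793, minus strand, mm10), squalene synthase, joins farnesyl diphosphate into squalene. It stood at 15.1, 16.0 and 14.6 RPKM in untreated replicates 1 to 3 and at 4.62, 4.37 and 4.08 RPKM in treated replicates 1 to 3. All treated libraries lay far below all untreated ones, with no overlap. The mean fell 3.49-fold, from 15.2 ± 0.685 to 4.36 ± 0.271 RPKM (SD, n = 3), with a log2 change of -1.60 (SE 0.0565, limma adjusted p = 2.1e-08). Exons of Fdft1 overlap those of Ctsb on the other strand by 774 bases in GENCODE M21, 18.3% of its exonic bases. Ctsb, a lysosomal protease gene, was at 3172 to 3265 RPKM in untreated and 3365 to 3616 RPKM in treated libraries. Ctsb was thus higher in treated libraries, whereas Fdft1 was lower. Fdft1 was scaled by 2860 bases, a length found by search and not the GENCODE exon length, and had at most 1091 reads in any library. How much of the overlap those 2860 bases cover is not known. The use of strand in counting was not given in the sources used here. The part of Ctsb reads in the Fdft1 values was not tested.

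Sqle (ENSMUSG00000022351, chromosome 15, 59315077 to 59331192, plus strand), squalene epoxidase, adds the oxygen that later becomes the sterol hydroxyl and is a rate-limiting enzyme of the branch. Its untreated libraries held 18.4, 19.4 and 17.9 RPKM and its treated libraries 2.41, 2.43 and 2.63 RPKM. These treated values are tight, and none comes near the untreated ones. Sqle had the largest change of the 9, a 7.45-fold fall from 18.6 ± 0.723 to 2.49 ± 0.123 RPKM (log2 change -2.49, SE 0.0519, limma adjusted p = 9.05e-10). Only 0.462% of tested genes had a lower log2 change. The ratio of Sqle to Fdft1 within a library went from 1.22 ± 0.00738 to 0.574 ± 0.0638 (SD, n = 3). It was lower in all treated libraries (exact permutation test, two-sided p = 0.1, the smallest that 3 against 3 allows).

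Lss (ENSMUSG00000033105, chromosome 10, 76531588 to 76557138, plus strand), lanosterol synthase, folds the epoxide into lanosterol, the first sterol. Scaled by 10787 bases of exon, its RPKM was already low in untreated libraries, at 4.31, 4.02 and 4.33. It reached 2.12, 2.17 and 2.22 RPKM in treated ones. All treated values were close to each other and near the midpoint between 0 and the untreated values. The mean fell 1.95-fold, from 4.22 ± 0.173 to 2.17 ± 0.0501 RPKM (log2 change -0.72, SE 0.0528, limma adjusted p = 2.79e-06). Lss thus stood between Sqle and Cyp51 in the pathway with a smaller change than either. On the log2(RPKM + 1) scale the change of low genes such as Lss is understated.

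Removal of the methyl groups of lanosterol starts with Cyp51 (ENSMUSG00000001467, chromosome 5, 4081145 to 4104746, minus strand), a cytochrome P450 that takes its electrons from the reductase Por. Cyp51 had the highest RPKM of the members in untreated libraries, at 24.7, 25.6 and 25.3, and dropped to 4.48, 5.03 and 4.49 RPKM in treated ones. The groups were far apart, and in treated libraries the range of Cyp51 overlapped those of Nsdhl and Fdft1. The mean fell 5.40-fold, from 25.2 ± 0.456 to 4.67 ± 0.314 RPKM (log2 change -2.21, SE 0.0522, limma adjusted p = 1.76e-09).

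Tm7sf2 (ENSMUSG00000024799, chromosome 19, 6062821 to 6068373, minus strand) encodes a sterol reductase that acts on the Cyp51 product, a step that the lamin B receptor Lbr can also carry out. Tm7sf2 had the lowest level of the 9 in untreated libraries, at 3.91, 3.998 and 3.97 RPKM, and was at 1.54, 1.68 and 1.56 RPKM in treated ones. Its replicates differed little in either group. The mean fell 2.49-fold, from 3.96 ± 0.0458 to 1.59 ± 0.0738 RPKM (log2 change -0.94, SE 0.0522, limma adjusted p = 4.11e-07). Lbr fell 1.57-fold, from 6.30 ± 0.242 to 3.999 ± 0.106 RPKM (log2 change -0.55, limma adjusted p = 1.44e-05). Of the summed RPKM of both reductase genes, Tm7sf2 made up 38.6% ± 0.697 in untreated and 28.5% ± 0.757 in treated libraries (SD, n = 3; exact permutation test, two-sided p = 0.1, the smallest possible). Tm7sf2 shares 532 exonic bases on the same strand with Vps51, which was at 9.46 to 9.80 RPKM in untreated and 8.70 to 9.60 RPKM in treated libraries, so reads of that stretch may have been assigned to either gene.

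Nsdhl and Hsd17b7 work in the same complex, a dehydrogenase and a ketoreductase that finish each removal of a methyl group from the sterol ring. Nsdhl (ENSMUSG00000031349, chromosome X, 72918557 to 72958514, plus strand) was at 9.001, 10.5 and 9.54 RPKM in untreated and 4.57, 4.98 and 4.91 RPKM in treated libraries. The untreated values of Nsdhl were the most spread of all members in either group relative to their mean. Its mean fell 2.005-fold, from 9.66 ± 0.734 to 4.82 ± 0.222 RPKM (log2 change -0.87, SE 0.0621, limma adjusted p = 2.3e-06). Hsd17b7 (ENSMUSG00000026675, chromosome 1, 169949535 to 169969241, minus strand) was at 5.39, 5.09 and 5.46 RPKM in untreated and 1.41, 1.42 and 1.30 RPKM in treated libraries. In treated libraries it was the member with the lowest RPKM. It fell 3.86-fold, from 5.31 ± 0.196 to 1.38 ± 0.0683 RPKM (log2 change -1.41, SE 0.0544, limma adjusted p = 3.59e-08). The ratio of Nsdhl to Hsd17b7 moved from 1.82 ± 0.203 to 3.51 ± 0.275 (SD, n = 3; exact permutation test, two-sided p = 0.1, the smallest possible).

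Ebp (ENSMUSG00000031168, chromosome X, 8185329 to 8193512, minus strand), the emopamil-binding protein, is the isomerase that shifts a double bond of the sterol ring before the last reductions. It was at 15.8, 15.8 and 14.9 RPKM in untreated and 17.2, 18.1 and 18.8 RPKM in treated libraries. All treated values were above all untreated ones, by a small margin. The mean rose 1.16-fold, from 15.5 ± 0.518 to 18.0 ± 0.809 RPKM (log2 change 0.20, SE 0.0494, limma adjusted p = 0.00584). Of tested genes, 84.6% had a lower log2 change. The call held in all 12 alternatives, with log2 changes of 0.18 to 0.37 and adjusted p up to 0.034, and the higher values came with median-of-ratios and upper-quartile scaling. Ebp shares 0 of its 2343 distinct windows of 75 bases, the read length, with annotated transcripts of other genes.

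Dhcr7 (ENSMUSG00000058454, chromosome 7, 143823145 to 143848410, plus strand) reduces dehydrocholesterol to cholesterol, and its substrate is also the precursor of vitamin D. Its untreated libraries held 9.62, 10.4 and 9.63 RPKM and its treated libraries 5.03, 5.52 and 5.83 RPKM. The ranges are separate, and no treated library went under 5 RPKM. The mean fell 1.81-fold, from 9.88 ± 0.435 to 5.46 ± 0.403 RPKM (log2 change -0.75, SE 0.0602, limma adjusted p = 5.09e-06). The ratio of Ebp to Dhcr7 went from 1.57 ± 0.0627 to 3.31 ± 0.0982 (SD, n = 3; exact permutation test, two-sided p = 0.1, the smallest possible).

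Ordered by log2 change, the members ran from Sqle over Cyp51, Fdft1, Hsd17b7, Tm7sf2, Nsdhl, Dhcr7 and Lss to Ebp. For each gene the 9 differences between a treated and an untreated library were taken as its spread. By this measure Sqle (-2.58 to -2.38) and Cyp51 (-2.28 to -2.09) stood apart from each other and from the rest, and so did Ebp (0.11 to 0.31). Fdft1 (-1.74 to -1.47) and Hsd17b7 (-1.49 to -1.33) overlapped, and each neighbouring pair among Tm7sf2, Nsdhl, Dhcr7 and Lss overlapped too. The changes did not follow the order of the steps: Lss, with a small fall, stands between Sqle and Cyp51, and Ebp, which rose, between Hsd17b7 and Dhcr7. The order within overlapping pairs depends on the offset, since with 0.1 Hsd17b7 (-1.87) came before Fdft1 (-1.78) and Lss (-0.93) before Dhcr7 (-0.84).

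**Figure D2:**
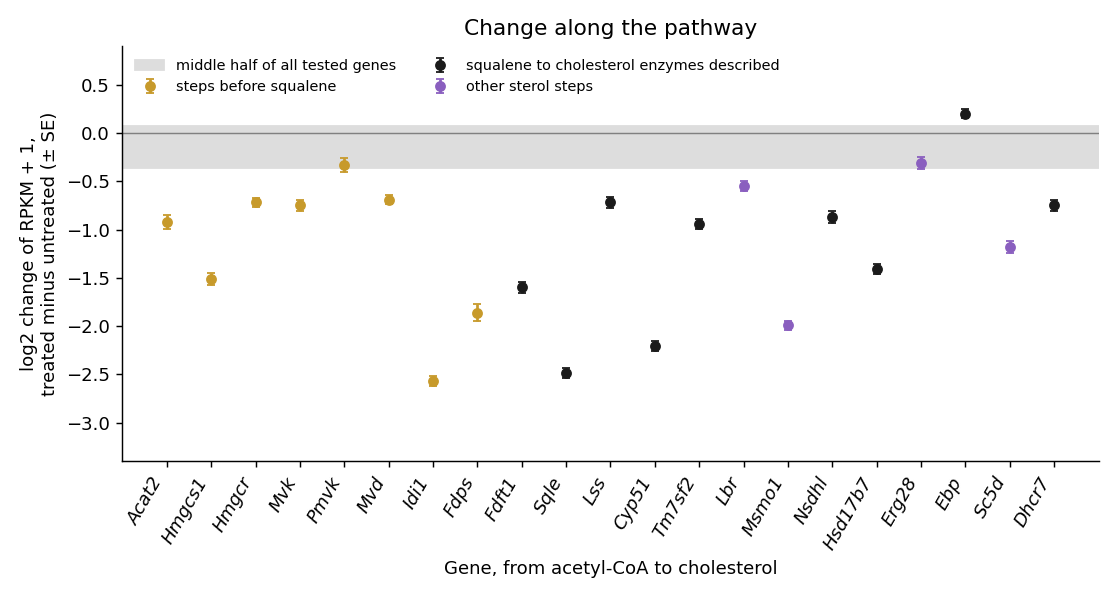
Log2 change of RPKM + 1 (treated minus untreated, ± SE from limma) for genes from acetyl-CoA to cholesterol, with the grey band spanning the quartiles of all tested genes, -0.36 and 0.07. Sqle at -2.49 and Cyp51 at -2.21 are the lowest of the 9 members, which are drawn in black, and Ebp at 0.20 is the only gene drawn that lies above 0.

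RPKM is scaled by gene length, so the levels, sums and shares below depend on the exon lengths used. Lss was scaled by 10787 bases and Ebp by 2310 bases. In untreated replicates 1 to 3, Lss had 899, 1037 and 1077 reads and Ebp 706, 875 and 796. In untreated libraries the order of mean RPKM was Cyp51, Sqle, Ebp, Fdft1, Dhcr7, Nsdhl, Hsd17b7, Lss and Tm7sf2, with overlapping ranges for Ebp with Fdft1 and for Dhcr7 with Nsdhl. In treated libraries it was Ebp, Dhcr7, Nsdhl, Cyp51, Fdft1, Sqle, Lss, Tm7sf2 and Hsd17b7, with overlap between Nsdhl and Cyp51 and between Cyp51 and Fdft1. Sqle thus went from the second to the sixth place and Ebp from the third to the first. The summed RPKM of the 9 genes was 106, 111 and 106 in untreated and 43.4, 45.7 and 45.8 in treated libraries, 2.40-fold lower on average. Without Ebp the sum fell 3.42-fold, from 92.0 ± 2.44 to 26.9 ± 0.709 RPKM. Ebp made up 14.4% ± 0.401 of the sum in untreated and 40.1% ± 0.797 in treated libraries, while Cyp51 went from 23.4% ± 0.458 to 10.4% ± 0.601 and Sqle from 17.3% ± 0.275 to 5.54% ± 0.218. The share of Tm7sf2 was 3.68% ± 0.0703 and 3.54% ± 0.130, with overlapping ranges.

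**Figure D3:**
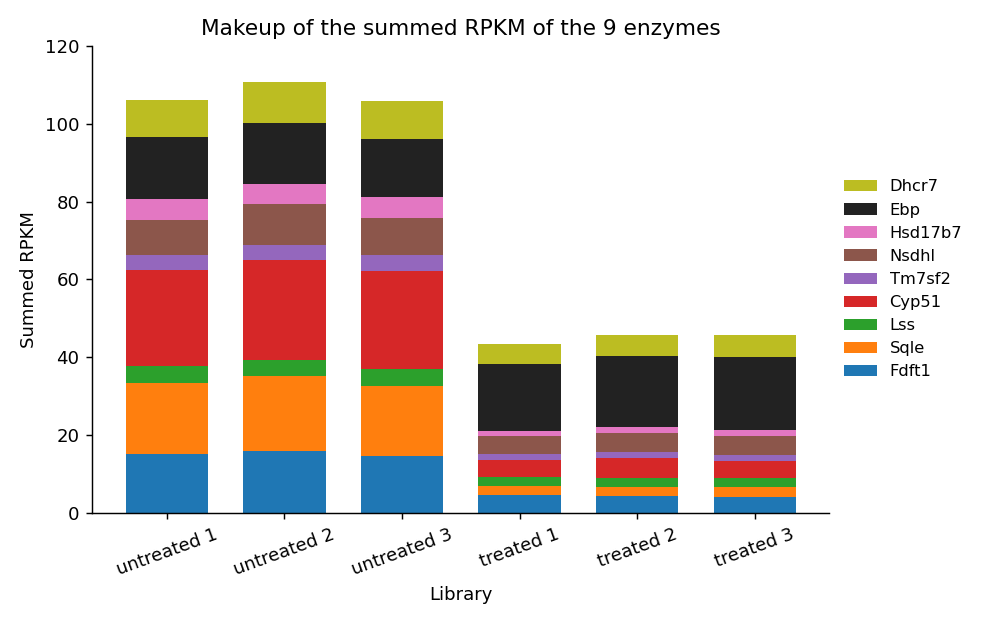
Stacked bars of the RPKM of the 9 enzyme genes in each of the 6 libraries, from Fdft1 at the bottom to Dhcr7 at the top. The bars reach 106 to 111 RPKM in untreated and 43.4 to 45.8 RPKM in treated libraries, and the black Ebp segment grows from 14.4% to 40.1% of the bar on average.

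The reads behind these values ranged from 128 for Tm7sf2 in treated replicate 3 to 2619 for Cyp51 in untreated replicate 2. All 9 members passed the expression filter of 1 RPKM in at least 3 libraries. The genes lie on 8 chromosomes, and the X chromosome holds 2 of them, Nsdhl and Ebp, which moved in opposite directions. Besides Fdft1 and Tm7sf2, annotated exons overlap those of another gene in Cyp51 by 166 bases (Akap9, opposite strand, 2.38 to 3.66 RPKM) and in Lss by 381 bases (4930483K19Rik, opposite strand, 0 in all libraries). Of distinct 75-base windows, Fdft1 shares 21.8% with transcripts of other genes, Tm7sf2 8.83%, Cyp51 2.07%, Lss 1.15% and Dhcr7 0.53%, while Sqle, Nsdhl, Hsd17b7 and Ebp share none.

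Further genes of the same branch, listed from the pathway, fell too. Lbr, Msmo1, Sc5d and Erg28, the 4 analysed, were lower in the limma test with a median log2 change of -0.86. Thus 12 of 13 sterol-step genes were lower, beside 46.0% of all tested genes, and Ebp was higher, beside 18.8%. Msmo1 (Sc4mol in the table), the methyl sterol oxidase upstream of Nsdhl, fell 4.39-fold from 30.8 ± 1.16 to 7.01 ± 0.0245 RPKM. Sc5d, the desaturase between Ebp and Dhcr7, fell 2.38-fold from 27.1 ± 1.02 to 11.4 ± 0.834 RPKM. Erg28 (0610007P14Rik in the table), a scaffold protein of the demethylation complex, changed least of these 4, with 5.73 ± 0.188 and 4.43 ± 0.324 RPKM (log2 change -0.31, adjusted p = 0.0015).

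Upstream of squalene, all 8 mevalonate-step genes were lower, beside 46.0% of all tested genes. Their median log2 change was -0.84, beside -0.94 for the members. Pmvk, at its log2 change of -0.17 under median-of-ratios scaling, did not pass there (adjusted p = 0.0628). Fdps, which makes the substrate of Fdft1, fell 3.80-fold from 53.7 ± 3.25 to 14.2 ± 1.83 RPKM. Of 11 genes of sterol sensing and uptake, 9 were lower and 2 higher, beside 46.0% and 18.8% of all tested genes, with a median of -0.44. With that scaling, under which 27.9% of tested genes were lower, Insig2 and Mbtps2 of the 9 did not pass (adjusted p = 0.547 and 0.0592). Srebf2 was at 38.3, 39.0 and 38.1 RPKM in untreated and 11.04, 11.7 and 12.4 RPKM in treated libraries, a 3.28-fold fall (log2 change -1.63, SE 0.0498, adjusted p = 8.61e-09). March6, the ubiquitin ligase known to degrade squalene epoxidase protein, fell 1.496-fold from 23.5 ± 0.128 to 15.7 ± 0.614 RPKM. The 2 that were higher were Mylip (log2 change 0.53, adjusted p = 5.67e-06) and Scap, the escort of SREBP proteins. Scap had a log2 change of 0.15 (adjusted p = 0.0375). This call depended on single libraries: Scap no longer passed when untreated replicate 1 (adjusted p = 0.116), 2 (0.0684) or 3 (0.09) or treated replicate 3 (0.0672) was left out, nor with no filter (0.0592).

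Among 6 redox partners and binding proteins, which include electron carriers of these enzymes, 2 rose, 3 fell and Pgrmc2 did not pass, beside 18.8% higher and 46.0% lower among all tested genes. Their median log2 change was -0.09. Cyb5a (Cyb5 in the table), cytochrome b5, which passes electrons to Sc5d and Msmo1, was at 48.6, 53.5 and 51.0 RPKM in untreated and 311, 325 and 327 RPKM in treated libraries. It rose 6.28-fold (log2 change 2.63, SE 0.0484, limma adjusted p = 4.41e-10), a change above that of 99.7% of tested genes. Por, the reductase that serves Cyp51, Sqle and many other microsomal enzymes, rose 1.88-fold from 81.3 ± 0.472 to 153 ± 8.03 RPKM (log2 change 0.90, SE 0.0473, limma adjusted p = 2.7e-07). Por over Cyp51 went from 3.23 ± 0.0594 to 32.9 ± 2.87 within a library (SD, n = 3; exact permutation test, two-sided p = 0.1, the smallest possible). The 3 that fell were Cyb5r3 (log2 change -0.47), the reductase of cytochrome b5, Pgrmc1 (-0.23) and Cyb5b (-0.15). With median-of-ratios scaling Pgrmc1 did not pass and Cyb5b turned to 0.02 without passing, and Cyb5b also lost its call without untreated replicate 3 (adjusted p = 0.052).

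**Figure D4:**
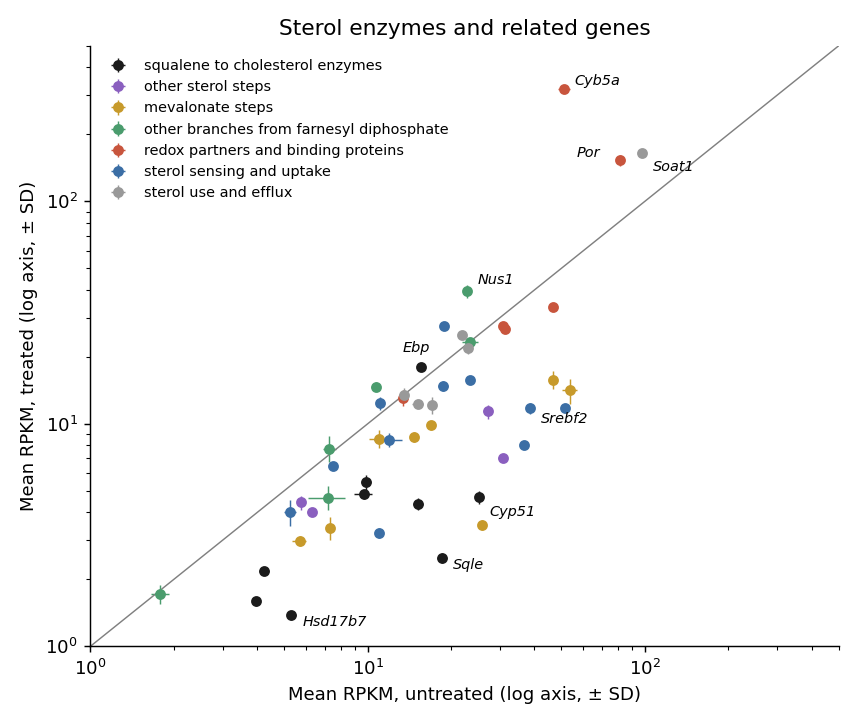
Mean RPKM in treated against untreated libraries on log axes (± SD of 3 libraries) for the tested genes of the pathway and of the related lists, with the line of equal values. The 8 lower enzymes lie below the line, down to Hsd17b7 at 5.31 and 1.38 RPKM, while Cyb5a lies above it at 51.0 and 321 RPKM.

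Genes whose profile over the 6 libraries was most like the mean profile of the 9 members were searched among 6366 named non-member genes whose mean reached 5 RPKM, by the root mean square distance of centred log2(RPKM + 1) values. The nearest were H1f0, a linker histone gene, at 0.0148, S1pr1, a sphingosine phosphate receptor gene, at 0.0156, Slc16a10, an amino acid transporter gene, at 0.0234, Anxa3 at 0.0240 and Pcna, the replication clamp gene, at 0.0243. H1f0, for example, was at 28.1, 29.6 and 28.9 RPKM in untreated and 11.7, 12.3 and 12.3 RPKM in treated libraries. The members themselves lay farther from their own mean profile, from 0.117 for Hsd17b7 to 0.702 for Ebp. These distances are not on equal terms, since the nearest genes were picked for small distance and the members were not. The mean profile also averages unlike log2 changes, from -2.49 for Sqle to 0.20 for Ebp.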

How the data were processed

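RNA of 6 macrophage cultures, 3 untreated and 3 given apoptotic thymocytes, was measured by strand-specific poly(A) sequencing, per the labels. The authors deposited RPKM values, per the file headers, with 38124 genes as rows and the 6 libraries as columns, annotated on mouse GRCm38 (mm10), per the submitters' processing notes. Not given in the sources used here are the aligner, the counter, the gene models, whether strand was used and how multiply matching reads were handled. The 6 columns were mapped to samples by name, and 0 further value columns were present.

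The test was limma 3.58.1 (R 4.3.3, trend option) on log2(RPKM + 1), with group as the sole factor, for genes that reached 1 RPKM in 3 or more libraries. Benjamini-Hochberg adjustment covered all tested genes, and calls were made at 0.05. Values are mean ± SD, folds are ratios of mean RPKM, and SE is the moderated error of the log2 change. Single ratios were compared with two-sided exact permutation tests in scipy 1.17.1, with 5 such ratios computed. Each exact test gave p = 0.1, which stays 0.1 after Benjamini-Hochberg adjustment over the 5. The fit was tested on simulated data, made from the untreated means with known changes in a small part of the genes. That simulation does not cover the wide shift between groups seen here, and no result above rests on it.

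Depth was recovered from genes with a single read, whose RPKM times GENCODE M21 exon length gives the library's mapped reads. Reads of the members came out whole within 0.001 in all 6 libraries for all 9, 5 at the GENCODE length and 4 at a searched length of up to 30000 bases. They cover counting error only.

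The rule for the members uses names only, but members, gene lists, ratios and motifs were chosen with earlier results of these data known. Named genes are all members, genes of 6 related lists, markers from the cell type lists and the 5 genes nearest in profile. A gene of the listed pathway is not reported here. Ctsb, Vps51, Akap9 and 4930483K19Rik were named because their exons overlap a member's. Alternatives were an offset of 0.1, no filter, a filter of 5 RPKM, median-of-ratios and upper-quartile scaling, a replicate block and leaving out each library.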

Additional observations from a re-analysis of the deposited data

How the results depend on the processing

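No member changed direction or lost its call in any alternative that tested it. The count stayed at 8 lower and 1 higher, except that a filter of 5 RPKM in 3 libraries left 7 members to test (Lss and Tm7sf2 dropped out), with 6 lower and 1 higher. Fdft1, Sqle, Nsdhl and Hsd17b7 were below 5 RPKM in every treated library, and Cyp51 reached it only in treated replicate 2. These genes passed that filter only through the untreated group, so it gives no separate support for their falls. Sqle ranged from -2.85 to -2.34 and Ebp from 0.18 to 0.37. Counts over all genes moved with scaling. Against 4679 lower and 1915 higher genes, there were 2832 and 3234 with median-of-ratios scaling and 2814 and 3280 with upper-quartile scaling. Under both scalings Fnta turned to 0.16, Abca1 to 0.16 and Cyb5b to 0.02, and Pmvk, Pgrmc1, Insig2, Mbtps2 and Cyp27a1 no longer passed. With no filter 18737 genes were tested, and 5160 were lower and 2139 higher. Leaving out each library gave 3657 to 4708 lower and 1549 to 1949 higher genes. The replicate number as a block gave 4627 lower and 1904 higher genes and 8 lower members. The values showed no pairing by number: deviations of same-numbered libraries from their group means correlated at 0.197, -0.031 and -0.162, and not every library correlated best with its own number. With 3 libraries per group, such correlations cannot show whether same-numbered cultures shared a source. With 128 reads or more behind each value of a member, counting error is small beside the changes of the 8 lower members, while Ebp rests on a difference of 1.16-fold.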

Other observations

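Farnesyl diphosphate also feeds branches outside sterol synthesis, directly or through geranylgeranyl diphosphate, which Ggps1 makes from it. Of 6 tested genes of these branches, 2 rose, 1 fell and 3 did not pass (limma on log2(RPKM + 1), adjusted p under 0.05), beside 18.8% higher and 46.0% lower among all tested genes, and 2 more, Pdss1 and Pdss2 of ubiquinone synthesis, were below the filter. Both subunits of the dolichol-making enzyme rose. Nus1 was at 22.8, 22.5 and 23.1 RPKM in untreated and 41.4, 40.3 and 36.5 RPKM in treated libraries, a 1.73-fold rise (log2 change 0.76, adjusted p = 1.81e-06), and Dhdds rose 1.38-fold from 10.7 ± 0.392 to 14.7 ± 0.701 RPKM. The gene that fell was Pggt1b, a subunit of the transferase that uses geranylgeranyl diphosphate, from 7.18 ± 1.10 to 4.66 ± 0.582 RPKM (log2 change -0.53, adjusted p = 0.00233). The prenyltransferase subunit Fnta did not pass at 23.5 ± 1.61 and 23.3 ± 1.05 RPKM, but with median-of-ratios scaling it was called higher (log2 change 0.16). Ggps1, at 7.27 ± 0.386 and 7.74 ± 1.03 RPKM, did not pass (adjusted p = 0.465), and passed as higher with either scaling (log2 change 0.22 and 0.23) or without treated replicate 3 (0.18).

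Of 6 tested genes of sterol use and export, 2 were higher, 2 lower and 2 did not pass, again beside 18.8% higher and 46.0% lower among all tested genes. Abca1, a sterol exporter gene and one of those that did not pass, was called higher with median-of-ratios and with upper-quartile scaling (log2 change 0.16 in both, adjusted p = 0.0403 and 0.0383). Soat1, which esterifies cholesterol for storage, was at 98.2, 97.5 and 98.4 RPKM in untreated and 163, 159 and 173 RPKM in treated libraries, a 1.68-fold rise (log2 change 0.74, adjusted p = 6.63e-07). The sterol exporter gene Abcg1 rose 1.14-fold from 21.9 ± 0.682 to 24.96 ± 0.985 RPKM. Nr1h3, which encodes the sterol-sensing receptor LXR alpha, fell 1.41-fold from 17.1 ± 0.244 to 12.1 ± 1.09 RPKM. Cyp27a1, a sterol hydroxylase gene, fell 1.23-fold from 15.1 ± 0.670 to 12.3 ± 0.117 RPKM, a call that was lost with median-of-ratios scaling (adjusted p = 0.0688). Ch25h and Cyp7b1 of the same list were below the filter and not tested. Ch25h had means of 0.378 ± 0.0365 RPKM in untreated and 0.0413 ± 0.0188 RPKM in treated libraries, with ranges that did not overlap. It rests on at most 13 reads in any library.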
